A study of Canis lupus familiaris with 4 samples.

Results

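The genes described here are extracellular and lysosomal proteases and the proteins that restrain or activate them: matrix metalloproteinases (MMP), ADAM and ADAMTS proteases, cathepsins, serpins, and TIMP1, TIMP2, CST3, PLAT and PLAUR. They were picked out by a rule on gene symbols, which was set with earlier results of these data known. The rule leaves out PLAU and TIMP3, which are given below. Of 56 matching symbols in the array annotation, 51 had a value on at least 1 array of each transfectant, out of 9575 features in all. MMP15 had a different clone measured in each transfectant, so 50 genes entered the comparisons, among 9567 features whose clone was measured in both. Of these 50, 36 rested on 1 clone and 14 on several, and 47 had a value on all 4 arrays.

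Gene expression was read in MDCK cells, an established canine kidney epithelial line, that carry E22A or E22B, transfectants of the basic helix-loop-helix factor E2-2 (gene TCF4). They are taken here as the A and B isoforms of E2-2, which the labels do not spell out. Each was hybridised as amplified RNA against the MDCK-CMV control line on spotted arrays of human cDNA clones, on 2 arrays of opposite dye according to the series' design text, which calls the transfectants clones. Each transfectant is therefore 1 biological sample with 2 technical arrays, every SD below is over arrays, and the same control line was used on all 4 arrays.

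Matrix metalloproteinases, ADAM and ADAMTS proteases share a catalytic zinc ion, cut collagens, other matrix proteins and cell surface receptors, and are blocked by the tissue inhibitors of metalloproteinases (TIMPs). Cathepsins degrade proteins mainly in lysosomes, and the cysteine cathepsins are inhibited by cystatins. Plasminogen activators generate plasmin at the cell surface, and most serpins trap serine proteases. Loss of E-cadherin from epithelial cells is often accompanied by increased matrix proteolysis.

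All values are log2 ratios of transfectant against control. Positive values lie on the side of CDH1, the E-cadherin gene, in E22B (2.39 and 0.85 on its arrays), and negative values on the side of FN1, fibronectin (-2.08 and -1.36 there). Neither the dye in the numerator nor the base of the logarithm is stated by any label or header used here. Whether the E-cadherin side is higher or lower in the transfectant is thus not settled. The usual Cy5 over Cy3 would make it higher, which opposes the E-cadherin repression reported for E2-2. For E22A array 1 the title and the channel labels name opposite dyes, so its sign is given by the title first, and by the channel labels it turns. The other 3 arrays keep their sign in both readings. The same title writes the transfectant as EE2A, and the extract protocol of its Cy3 channel names E22A cells. For E22A array 2 the protocol names only control cells, and the transfectant's dye comes from the title. By the titles the E22A arrays disagreed on both reference genes, with CDH1 at -2.13 and 1.13 and FN1 at 2.68 and -1.89. By the channel labels they agreed, with CDH1 at 2.13 and 1.13 and FN1 at -2.68 and -1.89, the same sides as in E22B. With the title signs, the correlation between the E22A arrays given below also becomes negative. The direction of E22A is thus not settled, and its values could also carry the opposite sign as a pair. Other epithelial and mesenchymal markers were mixed. By the channel labels EPCAM (2.57 and -0.17), CLDN4 (0.43 and -0.59), KRT8, CDH16 and CDH2 had E22A arrays on opposite sides. PAX8, COL1A2 and ACTA2 had them on the same side, and by the titles these groups swap. In E22B KRT8 lay on the FN1 side of both arrays and COL1A2, ACTA2 and CDH16 on the E-cadherin side. EPCAM, CLDN4, PAX8 and CDH2 had E22B arrays on opposite sides.

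The arrays held values for 22360 to 23136 spots. Before any turning, E22A array 1 correlated at r = 0.57 with E22B array 1 across 8665 features, at r = 0.37 with its own partner, and the E22B arrays at r = -0.40 with each other. These correlations are across features, which are not independent replicates. Duplicate spots of a clone were a median of 0.026 apart for the clones of these genes and 0.025 for all clones. Dye ratios give no level, so the epithelial identity of the cells could not be checked against its markers.

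Most of the protease genes stayed close to the control in E22B, as did most features. Their E22B means had a median of -0.07 against -0.00058 for all features. In size the median was 0.15, the same to 2 decimals as for all features, and 46 of the 50 means were under 0.5 in size, where 91.0% of all features were. Only ADAMTS3, 1 of 50 genes, departed by 2-fold or more in the same direction on both E22B arrays, where 0.672% of all 9378 features with both arrays were. At 1.5-fold MMP14 joined it, which made 2 of 50 genes against 3.13% of features. Both arrays lay on the FN1 side for 23 of the 50 genes (35.2% of all features) and on the E-cadherin side for 9 (34.9%). With 1 biological sample no test was made. The RNA is canine and the clones are human, and no intensities were used. A ratio near 0 therefore does not show that a gene was expressed or detected.

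**Figure D1:**
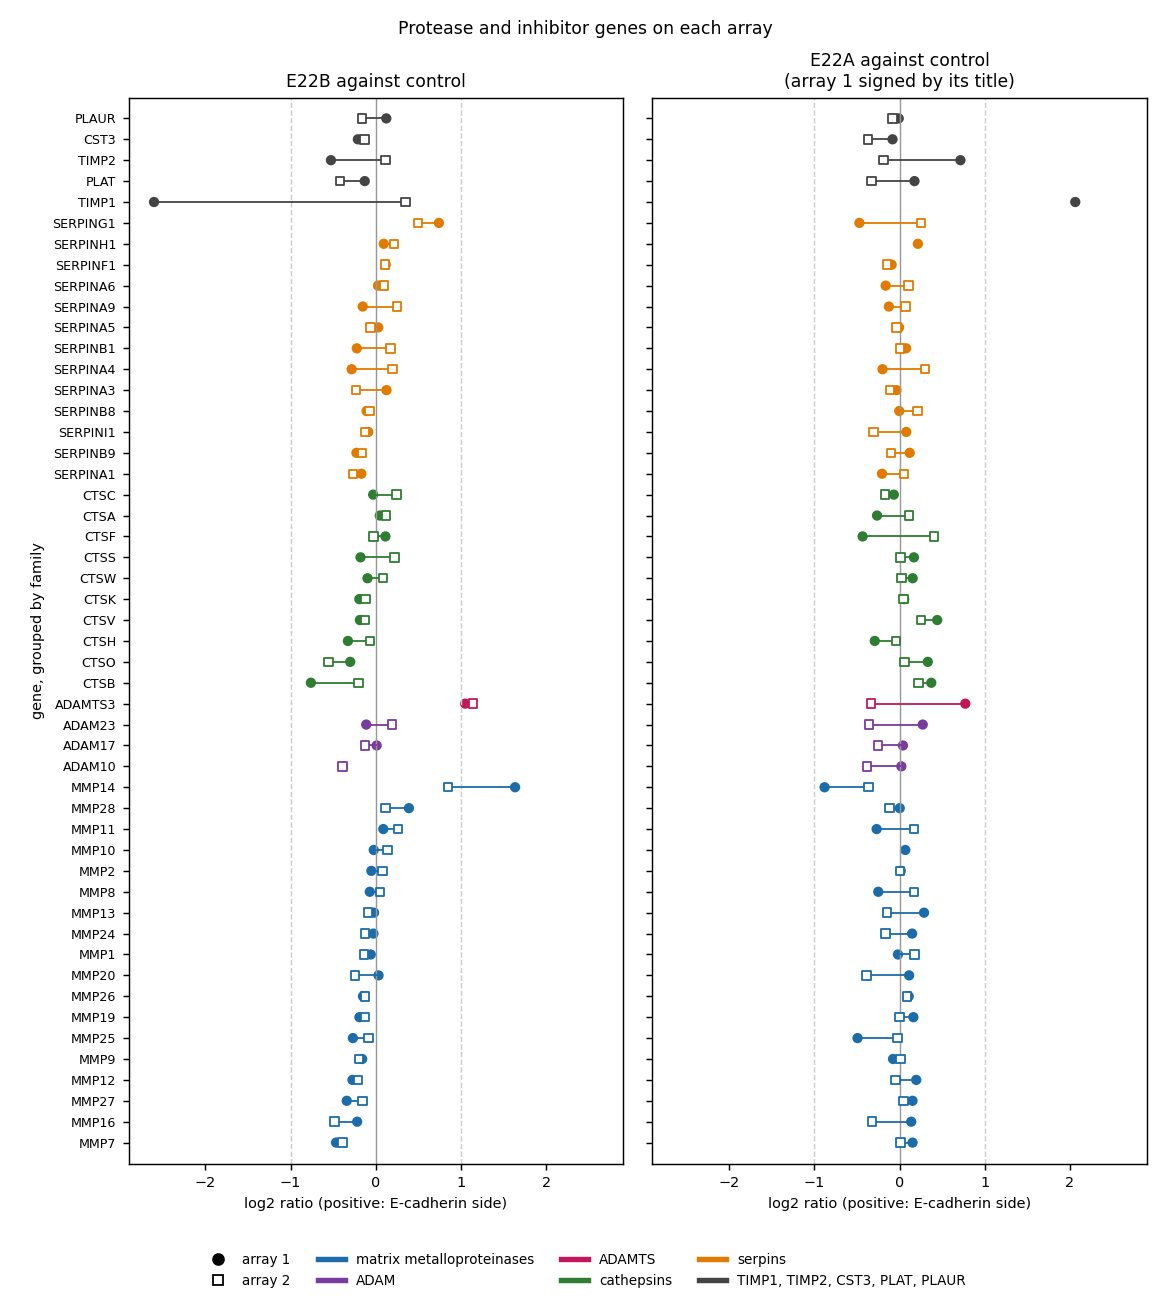
Log2 ratio of each of the 50 genes on both arrays of E22B (left) and of E22A (right, array 1 signed by its title), with filled circles for array 1, open squares for array 2, and a line between them. Dashed lines mark 2-fold. In E22B, ADAMTS3 lies beyond 2-fold on both arrays, and TIMP1 runs from -2.60 on array 1 to 0.35 on array 2.

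Among the matrix metalloproteinases MMP14 stood farthest from the control. This membrane-bound enzyme activates the gelatinase MMP2 at the cell surface. Its ratio was 1.64 and 0.85 on the E22B arrays, both on the E-cadherin side. E22A array 1 stood at -0.88 by the title (0.88 with the channel labels) and E22A array 2 at -0.36. By the titles both E22A arrays lay below both E22B arrays. With the channel labels E22A array 1, at 0.88, overlapped the E22B range. The E22B mean was 1.24 ± 0.56 (SD, n = 2 arrays), a 2.37-fold ratio. A further MMP14 clone had a value on E22B array 1 alone, 0.97, from spots that were 3.76 apart.

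Of the partners of MMP14, MMP2 stayed near 0 on the 1 clone with values, and the clones of TIMP2 disagreed. MMP2 stood at -0.05 and 0.08 in E22B and at 0.01 on both E22A arrays by the titles, close to 0 throughout. TIMP2, which holds MMP2 to MMP14 for its activation, had 3 clones that disagreed. One of them stood at -1.50 and -0.37 in E22B, while the other two, from another transcript record, stood at -0.05 and 0.34 and at -0.03 and 0.38. The gene's mean over clones, -0.21 ± 0.45 (SD, n = 2 arrays), therefore averages clones on both sides of 0, and with the median over clones in place of the mean it was 0.14. In E22A the TIMP2 ratio was 0.71 on array 1 by the title and -0.19 on array 2.

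The other MMPs, 17 of the 18, were within 0.5 of the control on every array measured, where 75.7% of all features were. For MMP25 this holds for the mean of 2 clones, which stood at 0.01 and -0.996 on E22A array 1 by the title. For MMP9 it holds for the mean of 5 clones, of which one stood at -0.53 on E22B array 2. MMP7, matrilysin of epithelial cells, was the lowest of the family in E22B at -0.47 and -0.39, and its E22A values of 0.15 and 0.01 by the titles did not overlap them. Array 1 of E22A turned to -0.15 with the channel labels, still without overlap. MMP16, another membrane-bound member, followed at -0.22 and -0.48. MMP9, the second gelatinase, rested on 5 clones and stood at -0.16 and -0.20 in E22B and at -0.08 and 0.01 in E22A by the titles. On the E-cadherin side lay MMP28 (epilysin) at 0.39 and 0.11 and MMP11 (stromelysin-3) at 0.09 and 0.26. Of the 18 MMP genes 13 had an E22B mean below 0 (50.1% of all features), 11 of them with both arrays below 0 (35.2%), and 17 had means under 0.5 in size, near the 91.0% of all features. MMP15 had no clone in common between the transfectants, and its clones stood at -0.33 and 0.26 on the E22B arrays and at 0.05 on E22A array 2.

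In the dog gene table the collagenases MMP1, MMP8 and MMP13, the macrophage elastase MMP12, the enamel protease MMP20, MMP27 and MMP7 lie near one another on the same chromosome, each within 10 protein-coding genes of the next. All 7 had an E22B mean below 0, from -0.43 for MMP7 to -0.01 for MMP8, with a median of -0.11, where 4789 of 9567 features had a mean below 0. For MMP1 this holds for the mean of 2 clones, of which one had an E22B mean of 0.08. MMP8 (-0.07 and 0.05) and MMP20 (0.03 and -0.25) had E22B arrays on opposite sides of 0. The rest of the 7 were below 0 on both. MMP10 was not found in the dog gene table by symbol, so its place was not checked. It stood at -0.02 and 0.14 on the E22B arrays, with a mean of 0.06. In E22A 2 of the 7 were below 0 by the titles, and 5 were with the channel labels. A group of 6 SERPINA genes that also lie close together ranged from -0.22 to 0.06 in E22B.

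ADAMTS3, the only ADAMTS gene among the 50, cleaves the amino-terminal propeptide of procollagen. Its E22B arrays stood at 1.05 and 1.14, both beyond 2-fold, with a mean of 1.10 ± 0.07 (SD, n = 2 arrays), a 2.14-fold ratio. In E22A array 1 was at 0.77 by the title (-0.77 by the channel labels) and array 2 at -0.34. Both E22A arrays lay below both E22B arrays in either reading. The gene rests on 1 clone whose duplicate spots were 0.28 and 0.34 apart on the E22B arrays and 0.39 apart on E22A array 1. For comparison, 90% of the spot pairs of these genes were within 0.082. The part of spot noise in the ADAMTS3 values was not tested.

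The 3 ADAM genes, as means over clones, stayed under 0.5 on every array, where 75.7% of all features did. ADAM10, a sheddase that cuts E-cadherin and Notch among other surface proteins, stood at -0.39 on both E22B arrays. Its 2 clones, from a single transcript record, gave E22B means of -0.45 and -0.33, so they lay on the same side. One of them stood at -0.53 on E22B array 2. E22A array 2 was at -0.38 and array 1 at 0.02 by the title, so the second array of E22A stood level with E22B. ADAM17, which releases tumour necrosis factor, stood at 0.01 and -0.12 in E22B. ADAM23, which lacks an active catalytic site, stood at -0.11 and 0.19 in E22B and at 0.27 by the title and -0.36 in E22A.

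**Figure D2:**
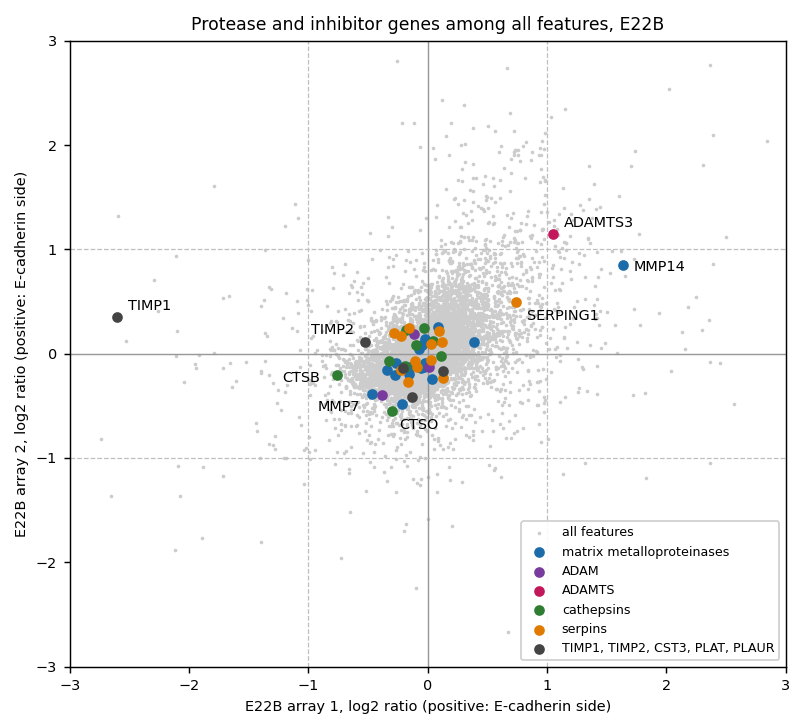
E22B array 1 against E22B array 2, both as log2 ratios with the E-cadherin side positive, for 9378 features (grey; 42 lie outside the axes) and the 50 protease and inhibitor genes (coloured by family). Dashed lines mark 2-fold. ADAMTS3 and MMP14 lie to the upper right, and TIMP1 lies far to the left with array 2 near 0.

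TIMP1, the broad metalloproteinase inhibitor, had the largest ratio of any of these genes on a single array. It stood at -2.60 on E22B array 1 and at 0.35 on E22B array 2, so the arrays of E22B lay on opposite sides of the control. On E22A array 1 it stood at 2.06 by the title and at -2.06 by the channel labels, and this clone had no value on E22A array 2. Both large values came from 1 spot each, whereas the 0.35 came from both spots of the clone. Another TIMP1 clone, measured on E22A array 2 only, stood at 0.42. The E22B mean of -1.13 ± 2.09 (SD, n = 2 arrays) was smaller than its spread.

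The large TIMP1 values lay on the first array of each transfectant, as did the larger TIMP2 means over clones. In E22B this came from the TIMP2 clone at -1.50, whereas the other clones were larger in size on array 2, at 0.34 and 0.38. One of those others was also larger in size on E22A array 2, at -0.27 against 0.18 on array 1 by the title. As given above, the first arrays of the transfectants are the 2 that ran together most closely across all features. The part of the individual arrays in the TIMP1 and TIMP2 values was not tested.

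Cathepsins lay close to the control, with 10 genes measured and a median E22B mean of -0.08. CTSB, the lysosomal cysteine protease that tumour cells often secrete, was the lowest, at -0.76 and -0.20 on the E22B arrays against 0.37 (by the title) and 0.22 on the E22A arrays. By the titles all of its E22A values lay above its E22B values, and by the channel labels array 1 stood at -0.37 and overlapped them. CTSO followed at -0.30 and -0.55, and CTSH, an aminopeptidase, at -0.33 and -0.07. CTSV, close in sequence to cathepsin L, stood at -0.19 and -0.13 in E22B. Its 2 clones, from a single transcript record, were 0.08 apart. At the other end CTSC, the dipeptidyl peptidase that activates granule proteases, stood at -0.03 and 0.24 in E22B and at -0.07 (by the title) and -0.17 in E22A. CTSK, the collagen-degrading cathepsin of osteoclasts, was at -0.19 and -0.12, and CTSF at 0.11 and -0.03. Both E22B arrays were below 0 for 5 of the 10 (35.2% of features) and above 0 for CTSA only (34.9%), a serine carboxypeptidase at 0.05 and 0.12 as the mean of 2 clones, of which one stood at 0.01 and -0.02. CST3, cystatin C, which inhibits the cysteine cathepsins, stood at -0.21 and -0.13 in E22B and at -0.08 and -0.37 in E22A by the titles.

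In plasminogen activation the receptor, as a mean over clones, and the tissue activator stayed near the control. PLAT, the tissue plasminogen activator, stood at -0.13 and -0.42 on the E22B arrays, and at 0.18 by the title (-0.18 by the channel labels) and -0.33 on the E22A arrays. All 4 arrays lay on the FN1 side with the channel labels. PLAUR, the urokinase receptor, stood at 0.12 and -0.16 in E22B and at -0.01 by the title and -0.08 in E22A, on both sides of 0 in E22B. It is the mean of 2 clones from different transcript records that ran opposite ways. One stood at 0.32 and -0.55 on the E22B arrays and the other at -0.07 and 0.23. The PLAUR ligand PLAU, the urokinase activator, is not one of the 50 and stood at 1.22 and 1.28 in E22B. TIMP3, the matrix-bound TIMP, stood at 0.55 and 1.68 there, on the E-cadherin side of both arrays, where TIMP1 had arrays on both sides.

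Serpins also stayed near the control, with 13 genes measured, 12 of them under 0.5 in size in E22B (91.0% of all features), and a median of -0.03. SERPING1, the inhibitor of complement component C1, was the exception at 0.74 and 0.50 on the E22B arrays, a mean of 0.62 ± 0.17 (SD, n = 2 arrays) and a 1.54-fold ratio. In E22A array 1 was at -0.47 by the title (0.47 by the channel labels) and array 2 at 0.25. With the channel labels all 4 arrays lay on the E-cadherin side, and the E22A arrays lay below both E22B arrays. SERPINH1, the collagen chaperone of the endoplasmic reticulum, stood at 0.09 and 0.22 in E22B and at 0.22 on E22A array 1 by the title, with no value on array 2. SERPINF1, the pigment epithelium-derived factor, which does not inhibit proteases, stood at 0.12 and 0.11 in E22B. SERPINB9, the granzyme B inhibitor, stood at -0.23 and -0.16, and SERPINI1, neuroserpin, at -0.09 and -0.13.

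SERPINA1, alpha-1-antitrypsin, was the lowest serpin mean in E22B at -0.17 and -0.27, but its 5 clones did not agree. In E22A it stood at -0.21 on array 1 by the title (0.21 by the channel labels) and at 0.05 on array 2. One clone stood at a mean of -1.46 in E22B, with -1.93 on array 2. Of the others, a pair from a single transcript record stood at 0.29 and 0.27 as E22B means, and the remaining 2 at -0.12 and -0.07. With only the clones measured on all 4 arrays, which leaves out the lowest, the SERPINA1 mean was 0.09. Among the 14 genes with several clones, SERPINA1 and TIMP2 were the 2 whose clones lay 1 or more apart in E22B, and the other 12 had clones within 0.5. How often clones of different genes lie within 0.5 was not worked out. The clones of ADAM10, of CTSV and of MMP12 each come from a single transcript record.

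**Figure D3:**
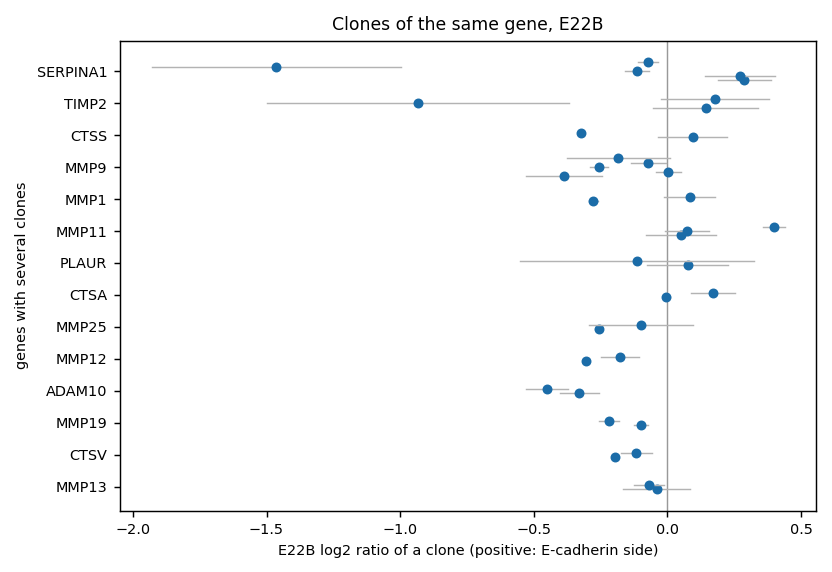
E22B log2 ratio of every clone of the 14 genes with several clones, ordered by the range between clones. Points are the clone's mean over the arrays and grey lines join its arrays. One clone of SERPINA1, at -1.46, and one of TIMP2, at -0.93, stand apart from the other clones of their gene.

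The pooled comparison asked whether a gene lay on the same side of the control in E22A and E22B. The mean ratios of the transfectants were tested against 0 with limma across 9567 features, with Benjamini-Hochberg adjustment over all of them. It takes the transfectants as replicates, so it tests what they have in common. By the titles none of the 50 genes passed an adjusted p of 0.05 (0.0% of all features did), and none was under an unadjusted p of 0.05, where 3.25% of features were. The smallest adjusted p among them was 0.988, which was also the smallest over all 9567 features. By the titles the E22A arrays lay on the same side for only 32.4% of features, so most E22A means average opposite signs. By the channel labels again none passed (0.0% of features), with a smallest adjusted p of 0.132 for TIMP1. At an unadjusted p under 0.05 there were 7 of 50, against 13.0% of all features, so the share of these genes was near the background.

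The 7 were MMP14, SERPING1, TIMP1, TIMP2, ADAM10, MMP16 and PLAT. MMP14 and SERPING1 lay on the E-cadherin side, with pooled ratios of 0.75 ± 0.26 and 0.49 ± 0.11 (SE, 2 transfectants). The other 5 lay on the FN1 side, from -1.59 ± 0.25 for TIMP1 to -0.26 ± 0.09 for PLAT (SE, 2 transfectants), and the TIMP1 value rests on the single spots described above. Without E22B array 2 the TIMP1 adjusted p by the channel labels (limma) became 0.0239, with 102 features passing in all. The channel labels leave E22A with 1 dye throughout, and its mean then retains whatever bias that dye gives a gene. Without E22B array 2 this reading has the transfectant in Cy3 on every array left. Dye and transfection cannot be told apart in that setting, and TIMP1 then rests on its single spots alone.

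In E22A taken alone, none of the 47 genes with both arrays reached 2-fold or 1.5-fold in a shared direction, in either reading. By the titles 0.0227% of all features reached 2-fold and 0.318% reached 1.5-fold, and with the channel labels 0.386% and 1.94% did. The arrays lay on the same side for 20 of 47 genes by the titles (32.4% of features) and for 27 with the channel labels (67.6%), and since only array 1 turns, a gene counts in one reading or the other. All 4 arrays lay on the FN1 side for CST3, CTSH and MMP25 by the titles (4.14% of features), and on the E-cadherin side for none (4.11%). Neither MMP25 clone did so alone, since one stood at 0.01 and 0.00 in E22A by the titles and the other at 0.10 on E22B array 2. By the channel labels 9 genes lay on the FN1 side of all 4 arrays (16.1% of features), among them ADAM10, MMP12, MMP16 and PLAT. Another 4 lay on the E-cadherin side (17.2%), namely CTSA, MMP11, SERPINA6 and SERPING1. These are means over clones, and for MMP12, MMP13, MMP19, CTSA and MMP11 at least 1 clone lay on the other side on an array.

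**Figure D4:**
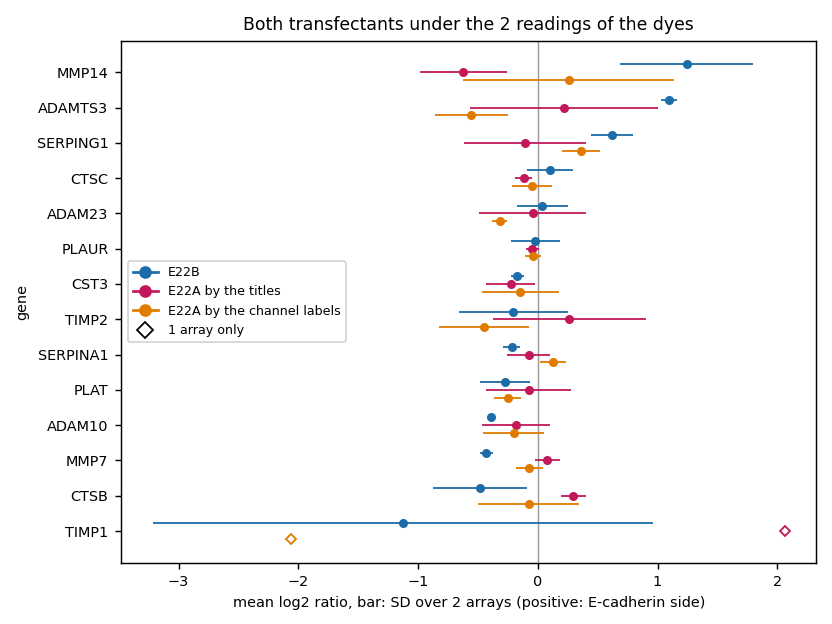
Mean log2 ratio of 14 genes in E22B (blue), in E22A by the titles (magenta) and in E22A with the channel labels (orange), with bars for the SD over 2 arrays and open diamonds where only 1 array had a value. MMP14 and ADAMTS3 stand at 1.24 and 1.10 in E22B and between -0.62 and 0.26 in E22A, and the E22A value of TIMP1 changes from 2.06 to -2.06 with the reading.

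E22A and E22B share the control line and were set side by side without a test, because each is 1 sample. By the titles MMP14 was the 1 gene of 47 that differed by 1 or more with no overlap between the arrays, with E22A minus E22B at -1.86, where 1.67% of features differed in this way. With the channel labels it was ADAMTS3, at -1.65, where 1.51% of features did. The ADAMTS3 difference by the titles was -0.88, and that of MMP14 with the channel labels -0.98. For both genes E22B thus stood farther to the E-cadherin side in either reading, with arrays that overlapped for MMP14 by the channel labels.

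A list of 51 other protease, inhibitor and receptor genes had 23 measured. In E22B 2 of the 23, PLAU and DPP4, a surface dipeptidyl peptidase, reached 2-fold on both arrays towards the E-cadherin side (0.576% of features), and none towards the FN1 side (0.096%). DPP4 stood at 1.34 and 1.10. The median of the list's E22B means was 0.14, and 17 of the 23 means were above 0 (49.9% of all features), and 16 of the 50 genes described here were. Both lists were drawn up with earlier results of these data known, and the difference between them was not tested. The list includes HPN, a membrane serine protease, at 0.73 and 0.30, SPINT2, a Kunitz inhibitor of such proteases, at 1.08 and 0.07, and HTRA1, a secreted serine protease, at -0.98 and 0.41. In the pooled test none of the 23 passed in either reading (limma). A further 5 symbols matched the name rule without values in both transfectants. SERPINE2, an inhibitor of plasminogen activators and thrombin, stood at 1.86 on E22A array 2 only, and ADAMTS13 at 1.62 on E22B array 1 only. SERPINC1 had a value on E22A array 2 only, and MMP17 and SERPINB3 had none.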

How the data were processed

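Each deposited value is taken as a log2 ratio between both dyes of an array, per the labels' description of 2-channel hybridisations. Base 2 is a convention. The deposited medians were near 0, and whether the authors centred the arrays is not stated. For image analysis, background correction, spot filtering and normalisation the method is not stated by any label used here. No intensities were used, so signal over background is unknown, and precision is limited by having 4 arrays. The 27648 spots belong to 13824 clones, 8744 with 1 gene symbol in the platform annotation, 327 with several and 4753 with none. Of the 50 genes 47 were found in the dog gene table (assembly UU_Cfam_GSD_1.0) by symbol, used for names and neighbours only. CST3, MMP10 and PLAUR were not found.

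Duplicate spots were averaged and each array centred on its median. Clones measured on at least 1 array of each transfectant were averaged by gene. A clone missing on 1 array keeps any dye effect. Arrays were turned by the dye of the transfectant, by the titles (main) or by the channel labels. For E22A array 2 the channel protocols name only control cells, so its E22A channel follows from the title. Transfectant means were tested by lmFit and eBayes of limma (version 3.58.1, under R 4.3.3), tested on simulated data first. The arrays of a transfectant count as 1 replicate, so p-values measure the spread between 2 lines and leave out the control's own spread. Values on every array are given for genes at 1.5-fold on both arrays of a transfectant, the highest and lowest E22B mean of each family, TIMP1, TIMP2, CST3, PLAT, PLAUR, and genes with clones 1 or more apart, 14 in all, and values of others are given to describe their family. The genes, lists and rules were chosen with earlier results of these data known. Alternatives covered orientation, centring, scaling, missing values, spots, clones, fold and each array left out.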

Additional observations from a re-analysis of the deposited data

Results flagged for a closer look

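For 15 of the 47 genes with all 4 arrays, both arrays of E22A lay on one side of the control and both arrays of E22B on the other, in 1 of the 2 readings of the dyes. By the titles this held for 9 genes, where 12.3% of all features did so, and by the channel labels for 6, where 16.4% did. The differences were not tested, because each transfectant is 1 sample. By the titles E22A minus E22B was -1.86 for MMP14, 0.78 for CTSB, 0.62 for CTSO, 0.51 for MMP7, 0.50 for CTSV, 0.35 for MMP27, 0.24 for MMP26, -0.23 for SERPINF1 and 0.21 for CTSK. By the channel labels it was -1.65 for ADAMTS3, 0.35 for SERPINA1, -0.31 for MMP28, 0.22 for MMP9, and 0.20 for both MMP1 and SERPINB8. Only array 1 of E22A turns between the readings, so no gene can meet this condition in both. For SERPINA1, 1 of the 5 clones stood apart from the others in E22B. Neither MMP1 clone met the condition alone, with one at -0.03 on E22A array 2 and the other at 0.18 on E22B array 1. Not every MMP9 clone met it either, since one stood at 0.05 on E22B array 1.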

How the results depend on the processing

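The pooled test called no protease gene under any of the 4 readings of the dyes, without centring, with scaled arrays, with clones on all 4 arrays, with both spots required, with the median over clones, or, by the titles, without any single array. In the settings that left out 1 array, genes at 2-fold in E22B numbered 1 to 3 (3 without E22B array 2, where 1 array decides), genes at 2-fold in E22A 0 to 1, and the median of the genes in E22B ranged from -0.110 to -0.0570. Leaving out 1 array in the channel-label reading, a combination chosen after the data were seen, gave 0 to 102 features in the pooled test and 0 to 1 protease genes, the 102 and the 1 without E22B array 2. Without E22B array 2 the channel-label reading has the transfectant in Cy3 on every array left, so dye and transfection cannot be told apart there. At 1.5-fold 2 genes were counted in E22B in place of 1. ADAMTS3 stayed between 1.04 and 1.14 in E22B over all settings, whereas TIMP1 ranged from -2.60 to 0.35 and TIMP2 from -0.53 to 0.14. The dye readings, the E22A arrays left out and the median over clones could not move the E22B mean of ADAMTS3, a gene on 1 clone. TIMP1 had no value with both spots required, with clones on all 4 arrays, or without E22A array 1.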
